A study of Mus musculus with 14 samples.

Results

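The sarcomeric myosin heavy chain genes Myh3, Myh2, Myh1, Myh4, Myh8, Myh13, Myh6 and Myh7 were followed through 10 ChIP-seq peak lists from C2C12 cells, a mouse myoblast line that fuses into myotubes when serum is lowered. A peak was taken as a member where the authors' annotation named one of these 8 genes as the gene with the nearest transcription start. This rule found 104 of 517058 peaks, 98 of them on chromosome 11 and 6 on chromosome 14. Since the nearest start is often not that of the gene a peak lies in, peaks inside an annotated transcript of the 8 genes were also collected. There were 87 of these, 67 of which were also named for one of the 8 genes, so that 124 peaks were examined in all.

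All cells were at day 2 of differentiation. Control cells gave 3 TDP-43 libraries and 1 library each for MyoD, for Myogenin and for the serine 2 phosphorylated form of RNA polymerase II (Pol II S2P). Cells transfected with an siRNA (10 nM) that targets Myolinc, a long noncoding RNA, are called siMyolinc and gave 1 library for each of the same 4 antibodies. The labels do not say whether control cells received another siRNA, nor whether the 3 TDP-43 libraries came from separate cultures, so the spread between them may be technical. The study asked whether TDP-43 sits at promoters of muscle genes and whether that depends on Myolinc. The lists carry no measure of the Myolinc transcript or of cell-type markers, so neither the knockdown nor the state of the cells was checked here.

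Myosin heavy chains are the motor proteins of the thick filament, and muscle fibres differ in which of them they make. Myh3 encodes the embryonic chain and Myh8 the perinatal chain, both made while muscle forms. Myh2, Myh1 and Myh4 encode the adult fast chains IIA, IIX and IIB, Myh13 the extraocular chain, Myh6 the alpha cardiac chain and Myh7 the beta cardiac chain, which is also that of slow fibres. MyoD and Myogenin are myogenic transcription factors that bind the E-box (CANNTG), TDP-43 is a DNA- and RNA-binding protein that favours TG repeats, and Pol II S2P is the elongating polymerase.

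The chromosome 11 cluster runs from Myh3 through Myh2, Myh1, Myh4 and Myh8 to Myh13, all on the plus strand, within chr11:67068273-67381587 of mm10 once 10 kb is added at each end. The chromosome 14 pair, Myh7 followed by Myh6 on the minus strand, lies within chr14:54931921-55004626. Promoter windows of 250 bases before the start were taken from RefSeq (GRCm38.p6, the assembly named mm10) for all 8 genes. For Myh1 the RefSeq start lay 12 bases before the start the peak lists used. The window of Myh13 is shown because no other of the 8 windows was overlapped by a peak, and that of Myh4 because it alone of the 8 held the E-box form CAGCTG. E-boxes are in capitals, and the windows are chr11:67326853-67327102 and chr11:67237562-67237811, both plus strand.
Myh13: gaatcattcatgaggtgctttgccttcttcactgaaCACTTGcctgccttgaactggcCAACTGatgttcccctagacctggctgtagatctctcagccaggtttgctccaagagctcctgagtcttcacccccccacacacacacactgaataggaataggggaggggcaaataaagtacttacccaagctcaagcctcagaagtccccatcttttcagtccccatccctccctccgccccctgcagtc
Myh4: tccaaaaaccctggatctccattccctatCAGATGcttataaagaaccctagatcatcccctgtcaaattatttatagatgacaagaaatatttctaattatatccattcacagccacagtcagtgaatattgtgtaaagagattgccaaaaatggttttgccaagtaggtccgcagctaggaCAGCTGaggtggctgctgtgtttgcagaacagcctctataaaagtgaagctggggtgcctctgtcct

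An E-box of any form (CANNTG, read on both strands) was present in 6 of the 8 windows, against 66.2% of 32851 RefSeq promoter windows of that length. The form CAGCTG was found in the Myh4 window and in 13.0% of all windows, and CACCTG in the Myh7 window and in 17.2% of all. TGTGTG, the TG repeat searched, was found in the Myh13 window, as part of a CA run on the printed strand, and in 17.9% of all. CAGCTG and CACCTG are themselves forms of CANNTG. These matches describe the letters and are not sites of binding.

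The 3 adult fast genes and Myh8 share a run of 14 bases, which no other of the 32851 windows held on the strand of its gene. The run was picked as the longest one shared by the Myh2 and Myh8 windows. A run of this length is rare in any case, so its absence from other windows is not a test. The lines that follow show the run in capitals with 8 bases on each side, because it sets these 4 promoters apart from the other 4 of the family. The run starts 125, 160, 158 and 54 bases before the start of Myh2, Myh1, Myh4 and Myh8, respectively, and no peak of any list overlapped these windows.
Myh2: aaaaatatTTCTAATTATATCCaaccattc
Myh1: gggaatatTTCTAATTATATCCaaacatcc
Myh4: agaaatatTTCTAATTATATCCattcacag
Myh8: atgaatacTTCTAATTATATCCgaagatgc
The longest run shared by any pair was 22 bases, between the Myh1 and Myh8 windows.

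The libraries differed in depth and in the shape of their lists. Scores were whole multiples of 1 step per list, read as 1 sequence tag. If they are scaled to 10000000 tags, the control TDP-43 libraries held 1394416, 1086957 and 962387 tags and the siMyolinc library 3253405. Pol II S2P went from 1455043 tags in control to 3775311 after siMyolinc, while the 4 MyoD and Myogenin libraries held between 3040130 and 3400215. List length ranged from 8162 to 116064 peaks. The MyoD and Myogenin siMyolinc lists had a median peak width of 75 bp, against 217 to 249 bp in the other 8 lists. Depth therefore moves with the knockdown for TDP-43 and Pol II S2P and peak width does so for both myogenic factors, and neither can be told apart from the knockdown in these libraries.

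Exon peaks took a larger share of the peaks in these genes than over all genes in all 10 lists, whatever the antibody, and control TDP-43 peaks lay mostly in exons. Inside transcripts of the 8 genes, the 3 control TDP-43 lists held 12, 6 and 5 exon peaks and 3, 0 and 0 intron peaks. Exon peaks were thus 80% (Wilson 95% interval 54.8 to 93.0), 100% (61.0 to 100) and 100% (56.6 to 100) of exon and intron peaks, against 36.7%, 46.2% and 48.4% over all genes of the same lists. The intervals on counts and shares reflect counting error alone, because each is taken within 1 library and treats peaks as separate events. They do not cover the spread between libraries, nor PCR duplicates, which are not separate molecules. The control Pol II S2P list had 5 exon peaks and 1 intron peak in the 8 genes (83.3%, 43.6 to 97.0), against 42.5% over all genes. The MyoD and Myogenin control lists had 2 exon peaks each among 11 and 8 peaks (18.2%, 5.14 to 47.7, and 25%, 7.15 to 59.1), against 4.40% and 4.60% over all genes. After siMyolinc the exon share in the 8 genes was 3 of 4 peaks for TDP-43 (75%, 30.1 to 95.4, against 14.7% over all genes) and 6 of 15 for Pol II S2P (40%, 19.8 to 64.3, against 8.29%). It was 3 of 9 for MyoD (33.3%, 12.1 to 64.6, against 8.27%) and 2 of 2 for Myogenin (100%, 34.2 to 100, against 13.8%). The interval for the 8 genes lay above the share over all genes in each of the 10 lists. A raised exon share was thus not particular to TDP-43 or to control cells. The shares are not adjusted for how much of a gene is exon, which may differ between the 8 genes and all genes. Whether the raised share goes beyond such a difference was not tested.

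All 23 exon peaks of the TDP-43 controls fell in the later part of their transcript, with an exon number above 50% of the last, from exon 20 to exon 40, with a median of exon 30. Over all genes, 61.4% of the 10220 exon peaks of these lists did. Both counts take a site once for each list that has it. Among the 23 peaks, 4 sites were found in all 3 controls and 1 site in 2 of them, so the 23 are not separate sites. The 5 exon peaks of control Pol II S2P were also all in the later part, from exon 27 to exon 40, against 61.8% of 2288. In the other 6 lists 14 of 18 exon peaks were, against 60.2% over all genes. The numbers 27, 30 and 35 recurred between genes, with 12 peaks in exon 27 of Myh1, Myh3 or Myh8, 7 in exon 30 of Myh13, Myh3, Myh7 or Myh8, and 8 in exon 35 of Myh1, Myh2 or Myh8. These counts too take a site once per list, and exon 27 of Myh8 alone was found in 7 lists. The transcripts have 39 to 41 exons, so equal numbers need not mark the same exon. Coding exons of these genes are close in sequence, so a tag from 1 gene may have been placed on another, and how the aligner treated such tags is not given in the sources used here. Exon lengths were not in the tables used, so the counts are not scaled by them.

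**Figure D1:**
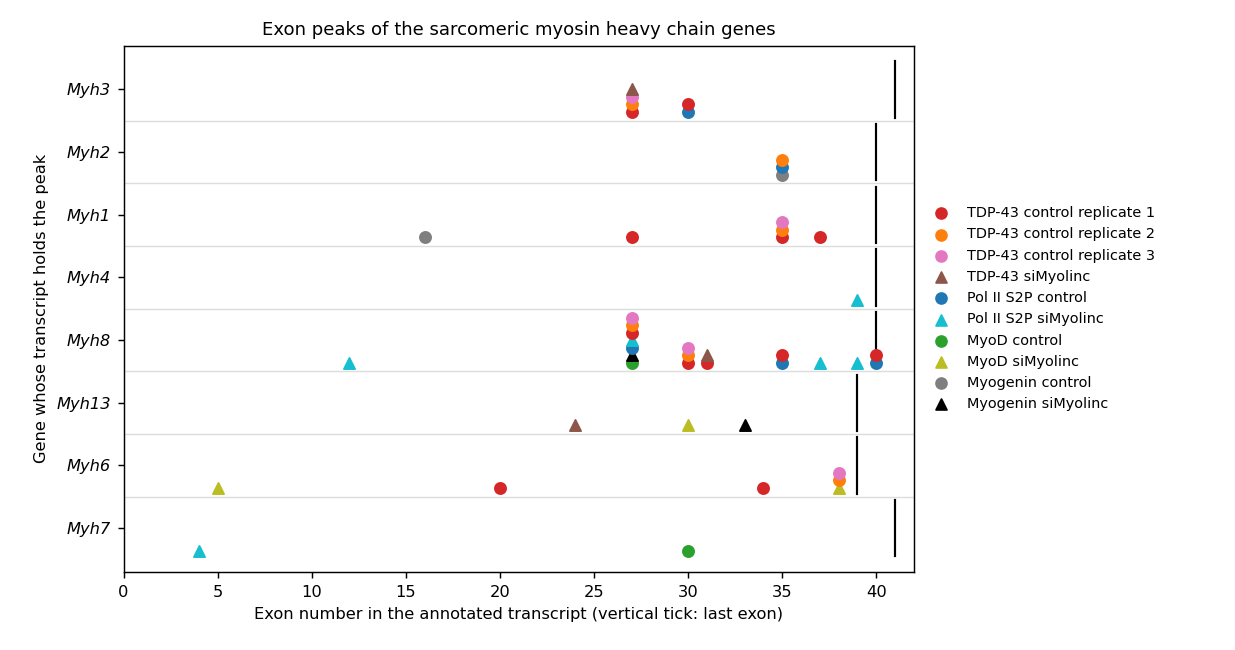
Exon number (x axis) of each of the 46 exon peaks, by the gene whose transcript holds it (y axis); circles are control lists, triangles siMyolinc lists, stacked where several lists have a peak in the same exon. Of the 46 peaks, 42 have an exon number above 50% of the last, and exons 27, 30 and 35 hold peaks in 3 or more genes each.

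Counted by gene, an exon peak was found in 4, 5 and 4 of the 8 genes in the TDP-43 control replicates. The background over 21900 protein-coding genes was 18.3%, 9.58% and 8.01%. The genes were Myh3, Myh1, Myh8 and Myh6 in all 3 replicates, with Myh2 added in replicate 2. After siMyolinc 3 of the 8 genes had a TDP-43 exon peak (Myh3, Myh8 and Myh13; background 7.13%). Control Pol II S2P had exon peaks in 3 genes, Myh2, Myh3 and Myh8 (background 8.75%), and siMyolinc Pol II S2P in Myh4, Myh7 and Myh8 (background 16.3%). MyoD had them in 2 genes in control and 2 after siMyolinc (background 5.69% and 14.8%), as did Myogenin (8.62% and 5.31%). Over the 10 lists together all 8 genes had an exon peak, where the background was 44.2%. Long genes with many exons can collect more peaks than short ones, which the background does not adjust for.

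Scaled to gene length, the 8 gene bodies, 0.224 Mb in all, held 16, 7 and 5 peaks in the TDP-43 controls. That is 4.08 times (exact Poisson 95% interval 2.33 to 6.63), 4.84 times (1.95 to 9.98) and 4.36 times (1.42 to 10.2) the peaks per Mb over all protein-coding bodies. The control Pol II S2P list gave 4.35 times (1.60 to 9.48) from 6 peaks. All 4 of these intervals lay above 1. These 4 lists also had the highest exon shares over all genes, 36.7% to 48.4%, against 4.40% to 14.7% in the other 6. The ratio is not adjusted for how much of a gene is exon, and whether it follows the exon share was not tested. For the other 6 lists the interval included 1, with ratios of 1.54 and 0.848 for MyoD, 0.913 and 0.880 for Myogenin (control and siMyolinc, respectively), 1.40 (0.380 to 3.57) for TDP-43 siMyolinc and 1.35 (0.786 to 2.16) for Pol II S2P siMyolinc.

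**Figure D2:**
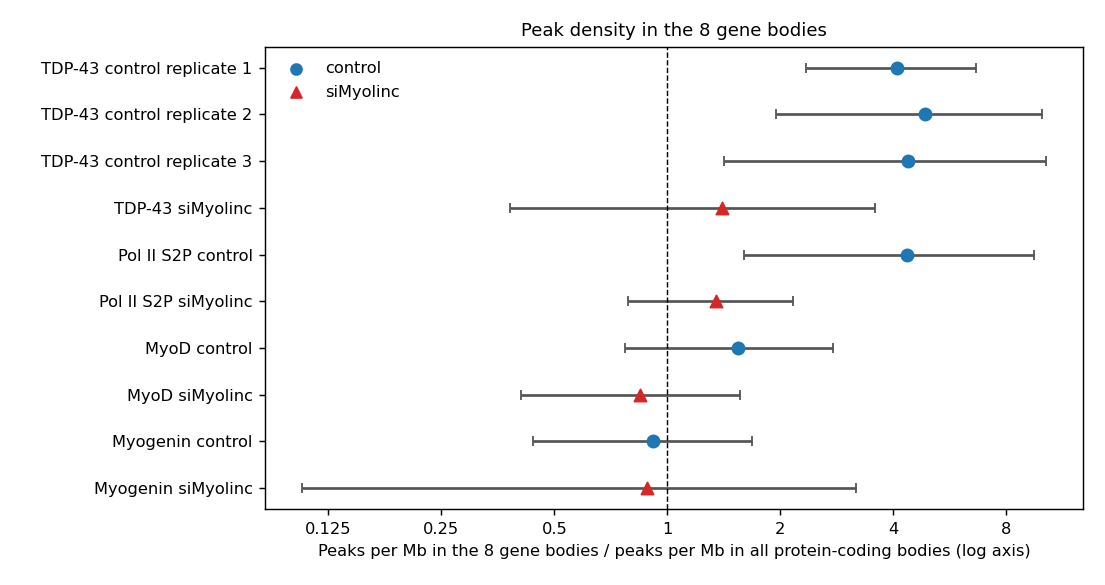
Peaks per Mb in the 8 myosin heavy chain bodies divided by peaks per Mb in all protein-coding bodies (x axis, log scale) for each list (y axis); bars are exact Poisson 95% intervals on the member count. The 3 TDP-43 controls and the Pol II S2P control sit between 4.08 and 4.84, and the other 6 lists between 0.848 and 1.54.

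Between conditions, TDP-43 could be compared over 3 control libraries and 1 siMyolinc library, a design whose smallest exact p is 0.25. The ratio of body density to all bodies was 4.43 ± 0.384 (SD, n = 3) in control and 1.40 after siMyolinc, outside the control range (exact two-sided permutation p = 0.25). Exon peaks in the 8 genes numbered 7.67 ± 3.79 (SD, n = 3) against 3 (exact permutation p = 0.5). Divided by the tags of the library, exon peaks per 1000000 tags were 8.61, 5.52 and 5.20 in control and 0.922 after siMyolinc (exact permutation p = 0.25). Over all genes, exon peaks numbered 5579, 2550 and 2091 in control and 1729 in the deeper siMyolinc library, so this drop too was not limited to the 8 genes. Peak numbers need not rise in proportion to tags. The share of exon peaks was 93.3% ± 11.5 (SD, n = 3) in control and 75% after siMyolinc (exact permutation p = 0.25), a comparison added after the data had been seen. Over all genes that share also differed, from 43.8% ± 6.20 (SD, n = 3) to 14.7%, so the difference was not limited to these 8 genes. The ratio of body density is not adjusted for this difference over the whole lists. None of these p-values could pass 0.05, and the siMyolinc library was also the deepest of the 4. A peak present in fewer cells and a weaker peak in each cell cannot be told apart in such bulk libraries.

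By the nearest-start rule the TDP-43 lists held 11, 6 and 3 member peaks in control and 6 after siMyolinc. The shares were 3.70, 5.68 and 3.68 per 10000 peaks in control (4.35 ± 1.15, SD, n = 3) and 2.40 after siMyolinc, below all 3 controls (exact permutation p = 0.5). Pol II S2P had 5 member peaks in control (4.67 per 10000, Wilson 95% interval 1.99 to 10.9) and 22 after siMyolinc (1.90, 1.25 to 2.87). MyoD had 12 in control (1.67, 0.955 to 2.92) and 16 after siMyolinc (1.46, 0.899 to 2.37). Myogenin had 17 in control (1.48, 0.923 to 2.37) and 6 after siMyolinc (2.93, 1.34 to 6.40). For these 3 antibodies the intervals of the 2 conditions overlapped, and with 1 library each there is no replicate check.

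The number of the 8 genes named for a peak of any class was 5, 5 and 2 in the TDP-43 controls, where 46.5%, 25.4% and 21% of protein-coding genes were named. It was 3 in TDP-43 siMyolinc (42.5%), 3 in control and 7 in siMyolinc Pol II S2P (25.2% and 72.3%), 5 and 6 for MyoD (61% and 71.1%), and 8 and 4 for Myogenin (68.8% and 37.4%). All 8 were named in at least 1 list, as were 84.2% of all genes, so being named at all sets these genes little apart.

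Promoters of these genes held few peaks. No TDP-43 list had a promoter peak at any of the 8 genes, where the background was 4.83%, 2% and 1.58% of genes in the controls and 2.34% after siMyolinc. Both Pol II S2P lists also had none (1.45% and 8.39%), as did Myogenin siMyolinc (2.31%). MyoD had 1 in control, at Myh13 (3.79%), and 1 after siMyolinc, at Myh2 (10.6%), and Myogenin had 1 in control, at Myh13 (6.16%). With backgrounds this low, 0 or 1 of 8 genes is close to what the genome-wide shares give. Over the 10 lists 2 of the 8 genes had a promoter peak, and 31.1% of all genes did.

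The Myh13 promoter peaks of MyoD and Myogenin overlapped within chr11:67326775-67327163. The MyoD control peak had 6 tags and its centre was 213 bases before the start, and the Myogenin control peak had 10 tags and was centred 49 bases before it. The MyoD peak spans both E-boxes of the printed Myh13 window, CACTTG and CAACTG, and the Myogenin peak, which lies closer to the start, spans neither. Neither was found again after siMyolinc. The Myh2 promoter peak of MyoD siMyolinc had 13 tags and was centred 560 bases before the start, at chr11:67170430-67170504, outside the window of 250 bases. All 3 promoter peaks scored below the median of their list.

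**Figure D3:**
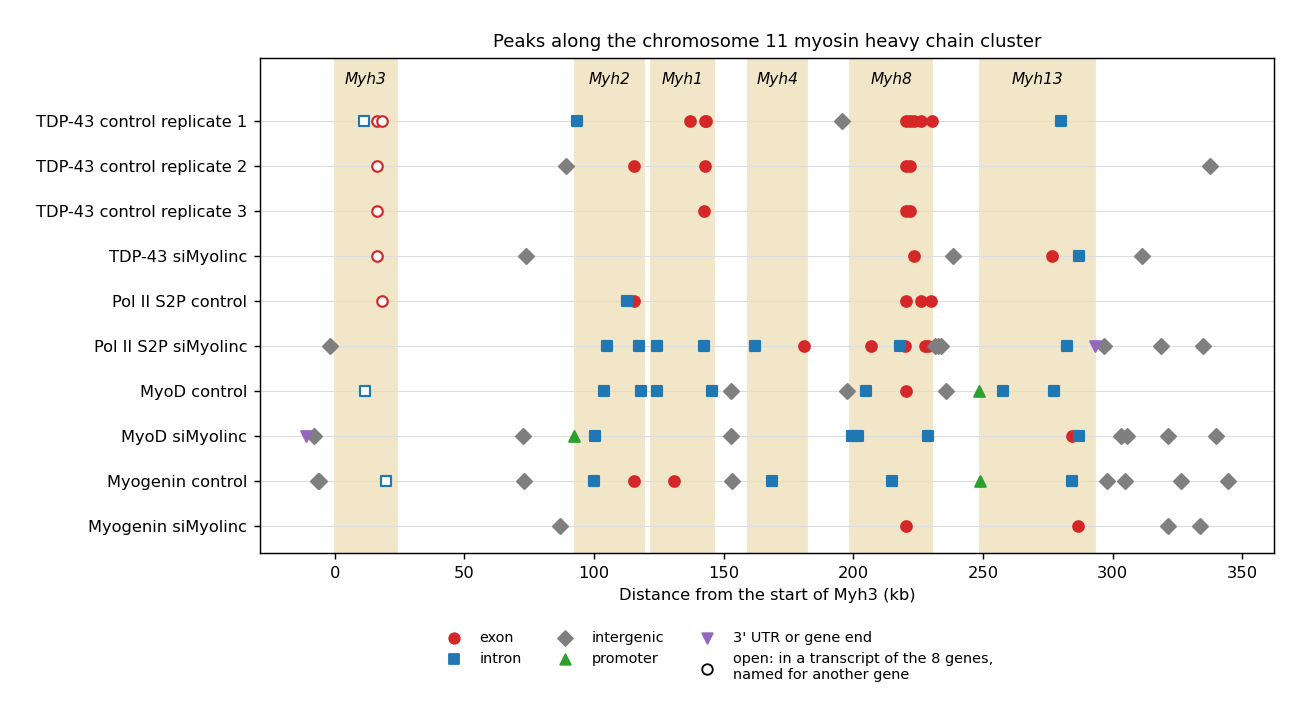
Peaks along the chromosome 11 cluster: distance from the start of Myh3 in kb (x axis), peak list (y axis), shaded gene bodies, and symbols by annotation class, open where the nearest start is not that of one of the 8 genes. Exon peaks of the TDP-43 and Pol II S2P controls gather in the later parts of Myh3, Myh2, Myh1 and Myh8, and intergenic peaks in the region before Myh2 and after Myh13 come mostly from the other lists.

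Myh8, the perinatal gene, carried the most peaks in its own transcript, 25 over the 10 lists, 19 in exons and 6 in introns. It was the only one of the 8 with a transcript peak in every list: 5, 2 and 2 in the TDP-43 controls, 1 in TDP-43 siMyolinc, 3 and 5 in Pol II S2P control and siMyolinc, 2 and 3 in MyoD, and 1 and 1 in Myogenin. Its exon 27 (chr11:67298280-67298809) was the most recurrent site of the family, with peaks in 7 lists. A site joins peaks that overlap in a chain, so not all of its peaks overlap each other. The MyoD control peak did not overlap those of Pol II S2P siMyolinc, Myogenin siMyolinc or TDP-43 control replicate 3. The TDP-43 controls had 11, 9 and 10 tags there, Pol II S2P 9 in control and 22 after siMyolinc, MyoD control 11 and Myogenin siMyolinc 198. Tags here and below are not scaled to the depth of the library. On the authors' score, which is assumed to be scaled to each library, the Pol II S2P peaks were 61.9 in control and 58.3 after siMyolinc. The median scores of these 2 lists were 41.2 and 29.1. TDP-43 siMyolinc had no peak at this site. The 198 tags belong to a list whose median peak held 137, so within that list the value is not unusual.

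Exon 30 of Myh8 (chr11:67299910-67300158) held a peak in the TDP-43 controls and in no other list, with 14, 8 and 7 tags. Exon 31 had 8 tags in TDP-43 control replicate 1 and 10 in TDP-43 siMyolinc. Exons 35 and 40 were each shared by TDP-43 control replicate 1, with 10 and 11 tags, and control Pol II S2P, with 6 and 6. A site where exon 39 meets intron 39 was shared by Pol II S2P siMyolinc with 15 tags and MyoD siMyolinc with 30. Of the Myh8 sites found in more than 1 list, all were thus in the later part of the gene.

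Myh3, the embryonic gene, had 9 transcript peaks, 6 in exons and 3 in introns, and none of them was named for Myh3. All 9 were named for Mir6923, a miRNA gene inside Myh3. Exon 27 of Myh3 (chr11:67094453-67094719) held 9, 8 and 6 tags in the TDP-43 controls and 8 in TDP-43 siMyolinc. It was the 1 site found in all 3 controls that was found again after siMyolinc. On the authors' score, a value assumed to be scaled to each library, it was 64.5, 73.6 and 62.3 in control and 24.6 after siMyolinc. The median scores of these lists were 57.4, 55.2 and 62.3 in control and 21.5 after siMyolinc. The lower score at this site thus went with lower scores over the whole siMyolinc list. Exon 30 held 7 tags in TDP-43 control replicate 1 and 7 in control Pol II S2P, and intron 17 held 6 in TDP-43 control replicate 1 and 6 in MyoD control. The 5 peaks that were named for Myh3 lay before it, 4 of them intergenic and up to 8.10 kb away, and 1 in the 3' UTR of its neighbour Sco1. These came from Myogenin control (37 and 29 tags), MyoD siMyolinc (42 and 15) and Pol II S2P siMyolinc (14).

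Among the adult fast genes, Myh1 (IIX) had 10 transcript peaks, 6 in exons. Its exon 35 (chr11:67220614-67221026) held 9, 8 and 6 tags in the TDP-43 controls, and a Pol II S2P siMyolinc peak of 16 tags, called intron 34, overlapped it. TDP-43 siMyolinc had none there. TDP-43 control replicate 1 alone added exons 27 and 37 with 10 and 12 tags. Intron 5 of Myh1 held 13 tags in MyoD control and 8 in Pol II S2P siMyolinc, and exon 16 held 19 in Myogenin control. The exon 35 and 37 peaks of Myh1 were named for Myh4, whose start is nearer to them.

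Myh2 (IIA) had 12 transcript peaks, 3 in exons and 8 in introns besides the promoter peak. Its 3 exon peaks were all in exon 35 (chr11:67193550-67193869), with 5 tags in TDP-43 control replicate 2, 6 in control Pol II S2P and 14 in Myogenin control. These 3 were named for Myh1. The intron peaks came from 6 lists, from 6 tags in TDP-43 control replicate 1 to 39 in MyoD siMyolinc. Myh4 (IIB) had 3 transcript peaks, the fewest of the 8 genes: intron 2 with 11 tags and exon 39 with 17 in Pol II S2P siMyolinc, and intron 15 with 12 in Myogenin control. No TDP-43 list had a peak in Myh4. By nearest start, however, Myh4 had 11 peaks, 6 of which lay in Myh1, so the TDP-43 peaks named for Myh4 (2, 1 and 1 in the controls, 0 after siMyolinc) were all exon peaks of Myh1.

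A region between Myh1 and Myh4 held intergenic peaks of MyoD control (7 tags, 6.83 kb before Myh4), MyoD siMyolinc (9 tags) and Myogenin control (18 tags) side by side without overlap. No TDP-43 or Pol II S2P list had a peak there.

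Myh13, the extraocular gene at the end of the cluster, was named for 40 of the 104 peaks. Of these 40, 13 lay in its own transcript, 7 in Myh8 and 20 in intergenic sequence up to 95.6 kb from its start. The intergenic peaks came from Pol II S2P siMyolinc, MyoD, Myogenin and TDP-43 lists. In its transcript were 3 exon peaks and 7 intron peaks, the 2 promoter peaks and 1 peak at the gene end. TDP-43 peaks in Myh13 were 1 in control, in intron 26 with 13 tags in replicate 1, and 2 after siMyolinc, in exon 24 with 8 tags and intron 33 with 11 tags. Of the 3 exon peaks the others were exon 30 in MyoD siMyolinc with 14 tags and exon 33 in Myogenin siMyolinc with 160. The intron 33 peak was the TDP-43 siMyolinc peak with the most tags among the 8 genes, and it overlapped a MyoD siMyolinc peak of 17 tags. No exon of Myh13 held a peak in a control TDP-43 or Pol II S2P list.

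**Figure D4:**
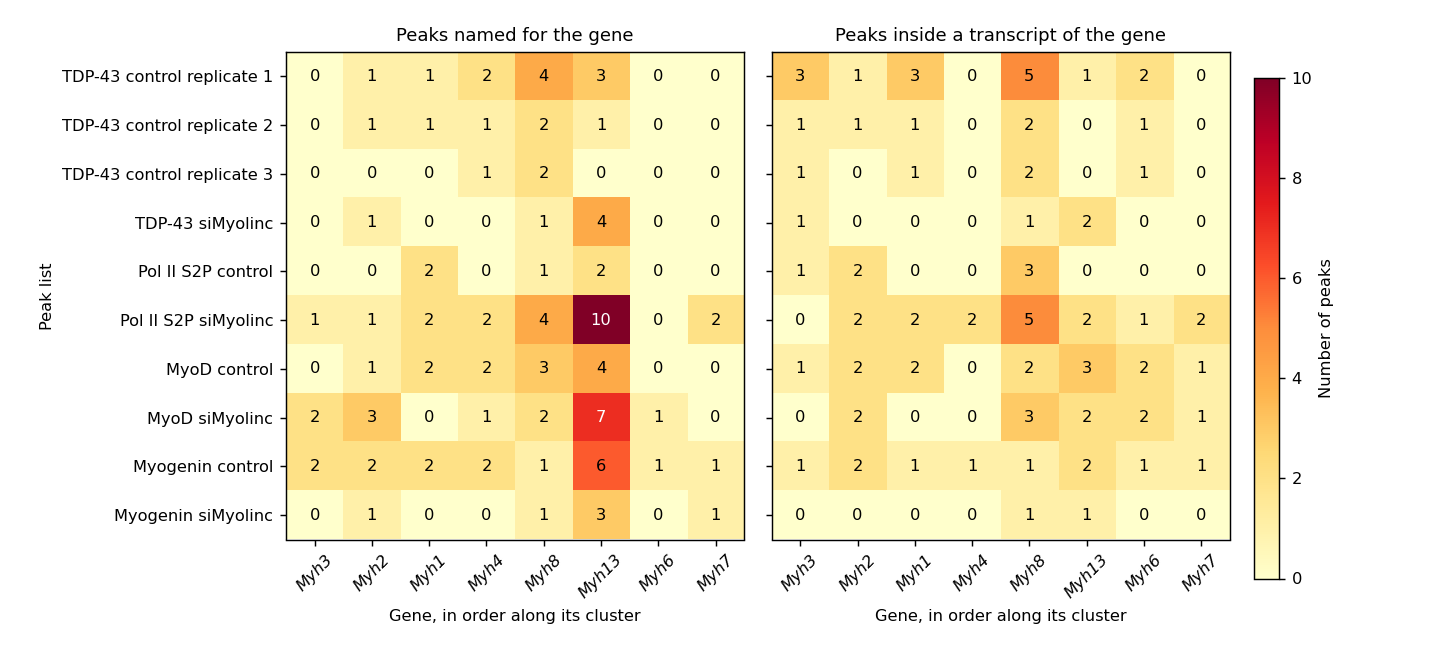
Number of peaks for each gene (x axis) in each list (y axis), by the nearest-start name on the left and by the transcript that holds the peak on the right; colour and number give the count. Myh13 has the most named peaks (40) and Myh8 the most transcript peaks (25), and the Myh3 and Myh6 columns are fuller on the right.

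On chromosome 14, Myh6 (alpha cardiac) had 10 transcript peaks, 6 in exons and 3 in introns, of which 2 were named for Myh6, 4 for Mir208a and 4 for Cmtm5. The TDP-43 controls had 2, 1 and 1 peaks in it, all in exons, and TDP-43 siMyolinc had none. Exon 38 (chr14:54942301-54942527) held 7 and 5 tags in TDP-43 control replicates 2 and 3 and 6 in MyoD siMyolinc. Replicate 1 had instead exon 34 with 16 tags and exon 20 with 13, and the 16 tags were the most of any peak in or named for the 8 genes in the TDP-43 controls. Myh7 (beta cardiac and slow) had 5 transcript peaks and none from TDP-43 in either condition. These were exon 30 in MyoD control with 11 tags, intron 26 in MyoD siMyolinc with 26, exon 4 and intron 16 in Pol II S2P siMyolinc with 13 and 7, and the gene end in Myogenin control with 23. No site on this chromosome was shared by Pol II S2P control, which had no peak in either gene.

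**Figure D5:**
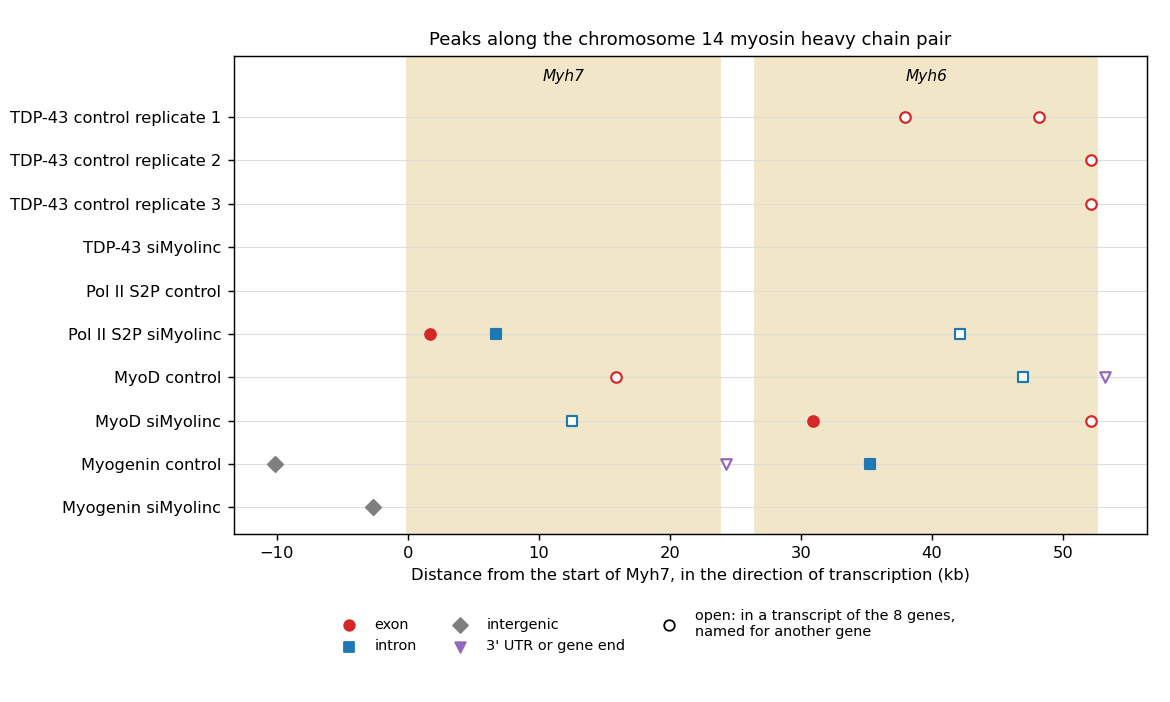
Peaks along the chromosome 14 pair: distance from the start of Myh7 in the direction of transcription in kb (x axis), peak list (y axis), shaded gene bodies and symbols as in the map of chromosome 11. The 4 TDP-43 control peaks are all exon peaks of Myh6, drawn open because their nearest start is that of another gene, and Myh7 holds none.

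The miRNA genes that took the names of Myh6 and Myh7 peaks lie inside these myosin genes, and are shown because they hide exon peaks from a search by gene name. Mature sequences are from RefSeq (GRCm38.p6) with the seed, bases 2 to 8, in capitals. miR-208a-3p comes from chr14:54949072-54949093 in Myh6 and miR-208b-3p from chr14:54975710-54975731 in Myh7, both minus strand, and they share their seed. miR-6923-5p comes from chr11:67099804-67099827 in Myh3.
miR-208a-3p: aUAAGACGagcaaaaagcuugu
miR-208b-3p: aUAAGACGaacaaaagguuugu
miR-6923-5p: gUGAGGGCaggaggauuggggugu
Of the 87 transcript peaks, 47 were named for the gene they lie in, 20 for another of the 8 genes and 20 for a gene outside the 8. For the exon peaks of the TDP-43 controls, 8 of 23 carried the name of their own gene.

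The 124 peaks fell into 97 sites, of which 82 were found in 1 list, 9 in 2 lists and 6 in 3 or more. An exon peak was present in 11 of the 15 sites found in more than 1 list, and 4 of the 15 had no control TDP-43 or Pol II S2P peak. The 4 sites found in all 3 TDP-43 controls were exon 27 of Myh3, exon 35 of Myh1, and exons 27 and 30 of Myh8. They were 4 of the 16 peaks of replicate 1 (25%, Wilson 95% interval 10.2 to 49.5), while 5.27% of all 29703 peaks of that list were found in both other replicates. Taken by pairs, the peaks of replicate 1 were found in replicate 2 for 25% (10.2 to 49.5, against 13.4% of all its peaks) and in replicate 3 for 25% (10.2 to 49.5, against 10.9%). Those of replicate 2 were found in replicate 1 for 50% (21.5 to 78.5, against 37.6%) and in replicate 3 for 62.5% (30.6 to 86.3, against 27.5%). Those of replicate 3 were found in replicate 1 for 80% (37.6 to 96.4, against 39.8%) and in replicate 2 for 100% (56.6 to 100, against 35.7%). The interval lay above the share of all peaks in the 2 pairings of replicates 2 and 3 and included it in the other 4.

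After siMyolinc, 2 of 16, 1 of 8 and 1 of 5 control TDP-43 peaks of the 8 genes were overlapped by a TDP-43 peak (12.5%, 12.5% and 20%), against 5.88%, 7.08% and 7.36% of all peaks. These were exon 27 of Myh3 and, in replicate 1, exon 31 of Myh8. For Pol II S2P 1 of 6 was, exon 27 of Myh8 (16.7%, against 10.5% of all peaks). None of 16 MyoD peaks and none of 19 Myogenin peaks was found again, where 1.78% and 0.355% of all peaks were. Peaks were thus rarely found again over the whole lists as well as at the 8 genes.

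By annotation class, the 104 named peaks were 34 exon, 29 intron, 36 intergenic and 3 promoter peaks, with 1 at a gene end and 1 in the 3' UTR of Sco1. Of all 517016 peaks outside the mitochondrial genome, 27350 were exon, 201606 intron, 260085 intergenic and 11859 promoter peaks. Intergenic peaks were 1 of 11, 2 of 6 and 0 of 3 in the TDP-43 controls and 3 of 6 after siMyolinc. Over all peaks of these lists they were 11673 of 29703, 3911 of 10571, 2912 of 8162 and 11695 of 24960. Pol II S2P had 0 of 5 in control and 7 of 22 after siMyolinc, against 4354 of 10715 and 57612 of 116064. MyoD had 3 of 12 and 7 of 16, against 38953 of 71878 and 54443 of 109522. Myogenin had 9 of 17 and 4 of 6, against 64717 of 115000 and 9815 of 20441. Repeats held 21 of the 104 peaks (20.2%), against 36.2% of all peaks.

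Related genes give a scale for the exon peaks. Other class II heavy chains, 6 genes for non-muscle, smooth muscle and divergent muscle chains spanning 534 kb, had 6, 3 and 4 exon peaks in the TDP-43 controls and 2 after siMyolinc, in Myh7b, Myh9, Myh10 and Myh14. The 8 sarcomeric genes, with 224 kb, had 12, 6 and 5, and 3. Thick filament partners (12 genes, 541 kb) had 5, 3 and 3, and 1, and Mybpc3, the cardiac myosin binding protein C, had one in every TDP-43 list. Myosin light chains (11 genes, 138 kb) had 1, 0 and 0, and 0, the 1 in Myl4. By gene, 4 of the 6 other heavy chains and 5 of the 8 sarcomeric genes had an exon peak in a TDP-43 control. Of the thick filament partners 4 of 12 did, and of the light chains 1 of 11. After siMyolinc the TDP-43 numbers were 2 of 6, 3 of 8, 1 of 12 and 0 of 11. Control Pol II S2P had exon peaks in 4 of the 6 and 3 of the 8. The spans include introns, so they do not measure exon length. Differences between these gene lists were not tested.

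The genes whose peaks per 10000 over the 10 lists ran most alike to the sum of the 8 were Lbx1 (Pearson r 0.990), Mir6977 (0.966) and Cntn1 (0.948), among 2554 genes with at least 50 peaks. The 10 points share the length and depth of their lists, so these values describe the lists as much as the genes.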

How the data were processed

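ChIP-seq of C2C12 cells was made with 10 µg of antibody per precipitation, per the labels' protocols. Of 14 samples, 10 have a peak list, and the 4 input and IgG samples were not analysed here. Per the file headers, the authors called peaks for each library against IgG and annotated them with HOMER on mm10; the HOMER version, the aligner and the settings were not given in the sources used here. The deposited peak score is the authors' own, used to describe and filter peaks within a list. The focus ratio, a fraction deposited with each peak, was not used in a comparison.

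Scores in a list were whole multiples of 1 step (tolerance 0.05) for 100% of peaks, and tags are score over step. The scaling to 10000000 tags is assumed, so depths are relative. Overlap means 1 bp or more, and a site is a chain of peaks each overlapping the part before it. Intervals are Wilson for shares and exact Poisson for densities, at 95%. TDP-43 conditions were compared by exact two-sided permutation over 3 and 1 libraries. The tag recovery and the overlap count were tested on simulated data. Python 3.11.15, pandas 2.3.3, NumPy 2.4.6, SciPy 1.17.1 and Matplotlib 3.10.9 were used. No genome was used, so motifs were counted in RefSeq promoter windows and not in peaks.

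The 8 genes and the comparison lists were chosen with earlier results of these data known. All 8 are named. Single peaks are named where they lie at a promoter, recur between lists or have the most tags of a list, and some others were named after their values were seen.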

Additional observations from a re-analysis of the deposited data

How the results depend on the processing

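The difference in the share of named peaks between siMyolinc and control kept its sign but not its size under the alternatives tried: the better-scoring part of each list (no lower than its median score), lists of equal length (8162 peaks), peaks in gene bodies, peaks in the cluster windows, and peaks outside repeats. It was -1.95 per 10000 for TDP-43, and between -2.29 and -1.29 when 1 control replicate was left out. Over the other alternatives it lay between -4.73 (windows) and -2.22. The MyoD difference was -0.209 and reached -1.23 (equal length), that of Pol II S2P -2.77 and reached -5.41 (better-scoring part), and that of Myogenin 1.46, with 0.108 in gene bodies, 0.619 in the windows and 2.95 in the better-scoring part. The number of the 8 genes with a promoter peak was 2 by the authors' class, against 31.1% of all genes. Within 1000 bp of the named start it was 3 (47.0% of all genes), and within 5000 bp it was 8 (75.6%). Among peaks no lower than the median score it was 0 (18.5%). Of the 11 named peaks of TDP-43 control replicate 1, 27.3% were overlapped by another TDP-43 control (Wilson interval 9.75 to 56.6). The share was also 27.3% when replicate 2 or 3 was left out, and 36.4% with peaks extended by 500 bp. Of all peaks of replicate 1, 13.4% were overlapped by replicate 2 and 10.9% by replicate 3. Both shares lie inside that interval. Each of the overlapped named peaks was, however, overlapped by both other replicates, which held for 5.27% of all peaks of replicate 1, a share below the interval. With 11 named peaks in 1 library, whether they differ from the whole list was not tested. The share of all peaks overlapped by either replicate was not counted. The TDP-43 exon share, added after the data had been seen, differed by -18.3 percentage points, between -25 and -15 with 1 control left out, and by -28.6 with lists of equal length. No paired analysis was possible because the siMyolinc group has 1 library per antibody. Most control TDP-43 peaks here rest on 5 to 16 tags.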

Other observations

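Within the 2 cluster windows, peaks were also named for genes outside the 8. The long noncoding RNA gene 2310065F04Rik, in the interval between Myh3 and Myh2, had 8 peaks in 6 lists, Mir6923 had 16 peaks in 8 lists, and Cmtm5 had 12 peaks in 7 lists.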
